A study of Mus musculus with 4 samples.

Results

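The Fanconi anemia and Brca genes of a cancer pathway panel were the 10 endogenous probes named Fanca, Fancb, Fancc, Fance, Fancf, Fancg, Fancl, Brca1, Brca2 and Brip1, chosen by symbol from 750. The study asked what changes in the tumor when regulatory T (Treg) cells lack the transcription factor Blimp1. It used an nCounter panel, which counts barcoded probes on RNA, on CD45- live cells from subcutaneous tumors of B16.OVA, a single transplanted mouse melanoma line that expresses ovalbumin. There were 2 samples from Prdm1fl/flFoxP3YFP-Cre (KO) mice and 2 from FoxP3YFP-Cre (WT) mice. Both groups were C57BL/6, carried the Foxp3-driven Cre, were immunized with NP-OVA in complete adjuvant at day 0 and incomplete adjuvant at day 7, and had tumors of at most 1.5 cm3. KO mice also carried floxed Prdm1, the gene for Blimp1, which this Cre deletes in Foxp3+ host cells and not in the melanoma cells. The study's methods state that its mice were young, within a range of weeks, and the labels give neither the age of these mice nor any pooling. Since separate animals are not stated for the samples, p-values measure only the spread between these samples, which may be technical.

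Fanconi anemia genes repair crosslinks between DNA strands, which block replication. A core complex, in which FANCL is the ubiquitin ligase, marks the FANCD2 and FANCI pair, and BRCA1, BRCA2 and the helicase BRIP1 act in homologous recombination and protect the stalled fork. Dividing cells such as those of a melanoma rely on them during S phase.

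Endogenous counts per sample totalled 626056 to 692284. Values below are scaled counts, which are raw counts divided by a per-sample factor (0.935 to 1.06) from the 20 housekeeping probes. A probe is above background where it exceeds a limit set 2 SD over the average negative control of its sample, at 17.5 to 21.9 counts, and the 446 probes that did so in at least 2 samples were tested. KO 2 stood apart over these genes, at 6.95 on a first principal component with 60.4% of the variance, against -3.27 to -1.33 for the other samples. Probes differ in efficiency, so levels of different genes are not ranked. In such bulk samples fewer cells of a type and less RNA per cell cannot be told apart. Of the 4 melanocyte lineage genes 3 were tested. Pax3, a transcription factor gene, ranged over 1576 to 1698 scaled counts in KO and 1926 to 1979 in WT samples, Met over 1258 to 1961 in KO and 1052 to 1486 in WT samples, and Kit over 36.2 to 36.4 in KO and 33.3 to 42.5 in WT samples. Of 19 leukocyte markers, 15 lay below background in every sample, among them Cd14 and Csf1r, and both endothelial markers, Kdr and Flt1, did too. The leukocyte markers Pik3cd, Plcg2 and Il3ra lay above background in all 4 samples, and Syk did in WT 1 alone. In scaled counts, both KO samples lay below both WT samples for Pik3cd and Plcg2, and the groups overlapped for Il3ra.

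Promoter stretches of Fance and Brca1 are shown because Fance was among the genes that differed most between the KO samples and Brca1 among those that differed least. They are the 120 bases before the start site in RefSeq (GRCm38.p6), at chr17:28313410-28313529 on the plus strand for Fance and chr11:101551956-101552075 on the minus strand for Brca1. Capitals mark the GC box (GGGCGG, here on the opposite strand) in Fance and the CCAAT box (CCAAT) in Brca1.
Fance: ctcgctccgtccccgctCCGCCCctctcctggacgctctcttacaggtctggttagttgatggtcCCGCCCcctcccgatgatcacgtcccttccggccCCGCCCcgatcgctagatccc
Brca1: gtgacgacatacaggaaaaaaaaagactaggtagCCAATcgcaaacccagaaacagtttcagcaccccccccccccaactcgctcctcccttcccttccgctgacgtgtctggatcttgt
Over the full 250 bases before the start site, Fance held 4 GC boxes and 1 CCAAT box, and Brca1 held 1 CCAAT box and no GC box. The annotated gene Nbr1 overlaps that Brca1 window. Brip1 held 3 GC boxes, Fancb 1 and Fancf none, and the KO samples differed for these genes too. Fancl, with KO samples close together, held none of the motifs searched. A link between motifs and the spread of the KO samples was not tested.

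Matches to an E2F motif are shown because E2F factors drive genes of S phase entry, and 3 of the 10 genes had one in the 250 bases before the start site. The letters searched on both strands were TTTCGCGC, TTTGGCGC, TTTCGCGG, TTTGGCGG and TTTCCCGC. Each match stands in capitals with 10 bases on each side, at chr4:43010336-43010363 (minus strand) for Fancg, chr5:150522443-150522470 (plus strand) for Brca2 and chr11:86201363-86201390 (minus strand) for Brip1.
Fancg: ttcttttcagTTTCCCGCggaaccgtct
Brca2: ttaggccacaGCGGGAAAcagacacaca
Brip1: tcccagtcttTTTCGCGGggtggggttt
Of 32851 promoter windows of this length, 2.17% held such a match, and the 3 matches shown overlapped no other motif searched. A CCAAT box was found in 7 of the 10 genes and 33.8% of the windows, and a GC box in 4 genes and 32.7%. The cAMP response element TGACGTCA was found in Brca2 alone and in 1.55% of the windows. A match describes letters and not a bound site. In Fanca, Fancb, Fancc, Fancg, Brca2 and Brip1 the start site used is not the first base of the annotated gene. Other annotated genes also overlap the windows of Fancb (Mospd2), Fancf (Gas2) and Brip1 (Brip1os).

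None of the Fanconi anemia and Brca genes passed the test between KO and WT samples. All 10 lay above background in all 4 samples, and their log2 fold changes ran from -0.30 for Fancb to 0.063 for Brca2. The group means differed by at most 18.5%, for Fancb. In edgeR's quasi-likelihood test over 446 genes, 0 of the 10 passed an adjusted p of 0.05, as did 0% of all tested genes. At an unadjusted p under 0.05 there were 0 of the 10, against 7.4% of all tested genes, of which 2.91% were higher and 4.48% lower in KO samples. DESeq2 and limma-voom also called 0 of the 10, adjusted or unadjusted, and over all genes called 2 and 0 adjusted and 22 and 37 unadjusted. For a single gene, 2 samples against 2 allow an exact permutation p (two-sided) of 0.333 at the smallest.

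**Figure D1:**
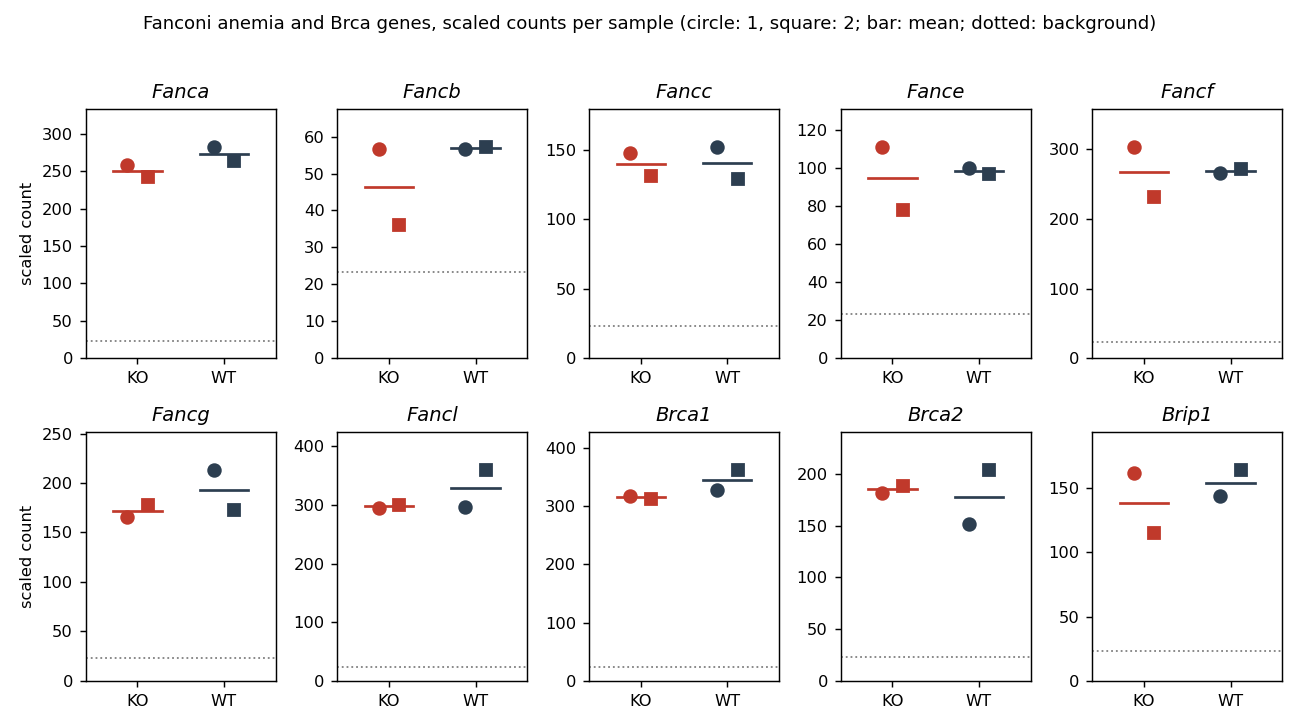
Scaled counts (vertical axes, from 0) of the 10 genes in the KO samples (red, left) and the WT samples (dark, right), with a circle for sample 1, a square for sample 2, a bar for the group mean and a dotted line at the highest scaled background limit. KO 2 is the low point for Fancb (36.2), Fance (78.0), Fancf (231) and Brip1 (115).

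In the catalytic module of the core complex, Fancl, the ubiquitin ligase gene, gave 295 and 300 scaled counts in the KO pair, against 297 and 360 in the WT pair. The KO samples were close to WT 1, and WT 2 stood above the other samples. The log2 fold change of Fancl was -0.14 (95% interval -0.48 to 0.19, edgeR adjusted p = 0.753), or 0.0042 without WT 2. Fancb, whose product binds FANCL in this module, had 56.7 and 36.2 scaled counts in KO 1 and KO 2, and 56.7 and 57.2 in the WT pair. KO 2 alone was low, at 1.91 times its background limit, and the other samples were almost equal. The log2 fold change of Fancb was -0.30 (95% interval -1.07 to 0.46, edgeR adjusted p = 0.753), or -0.0070 without KO 2 and -0.65 without KO 1.

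Fancc, Fance and Fancf encode the module that recognises the substrate of the ligase. Fancc had 148 and 131 scaled counts in the KO pair, against 152 and 129 in the WT pair. The groups interleaved, and the log2 fold change was -0.014 (95% interval -0.47 to 0.44, edgeR adjusted p = 0.975). Fance, whose product contacts FANCD2, had 111 and 78.0 scaled counts in KO 1 and KO 2, and 100.1 and 96.7 in the WT pair. Fancf, an adaptor of the complex, had 304 and 231 scaled counts in KO 1 and KO 2, and 266 and 273 in the WT pair. For Fance and Fancf alike, KO 1 was the highest and KO 2 the lowest of the 4 samples, with both WT samples between them. The log2 fold change of Fance was -0.061 (95% interval -0.69 to 0.57, edgeR adjusted p = 0.946), and that of Fancf was -0.013 (95% interval -0.41 to 0.38, edgeR adjusted p = 0.974). The sign turned with the KO sample that was kept, at 0.18 for Fance and 0.17 for Fancf without KO 2, and -0.33 and -0.22 without KO 1.

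Fanca and Fancg encode core complex subunits that bind each other. Fanca had 258 and 243 scaled counts in the KO pair, against 282 and 263 in the WT pair. Both KO samples lay below both WT samples by a small margin. Its log2 fold change was -0.13 (95% interval -0.43 to 0.18, edgeR adjusted p = 0.753), and -0.18 to -0.074 with any 1 sample left out. Fancg had 166 and 178 scaled counts in the KO pair, against 213 and 173 in the WT pair. WT 1 was high and the other samples lay close together. The log2 fold change of Fancg was -0.17 (95% interval -0.59 to 0.25, edgeR adjusted p = 0.753), or -0.0065 without WT 1.

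Beyond the core complex, Brca1, a ubiquitin ligase and scaffold of homologous recombination, had 318 and 311 scaled counts in the KO pair, against 327 and 362 in the WT pair. Both KO samples lay below both WT samples, with KO 1 near WT 1. Its log2 fold change of -0.13 (95% interval -0.42 to 0.16) had the lowest p among the 10 genes (edgeR, unadjusted p = 0.309, adjusted p = 0.726). Brca2, a mediator of homologous recombination, had 182 and 188 scaled counts in the KO pair, against 151 and 204 in WT 1 and WT 2. The KO pair fell inside the range of the WT pair. The log2 fold change of Brca2 was 0.063 (95% interval -0.40 to 0.53, edgeR adjusted p = 0.938), or -0.14 without WT 1 and 0.29 without WT 2. Brip1, the helicase that binds BRCA1, had 161 and 115 scaled counts in KO 1 and KO 2, and 144 and 164 in the WT pair. KO 2 was low here too, and the other samples overlapped. The log2 fold change of Brip1 was -0.16 (95% interval -0.69 to 0.38, edgeR adjusted p = 0.816), or 0.070 without KO 2 and -0.42 without KO 1.

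**Figure D2:**
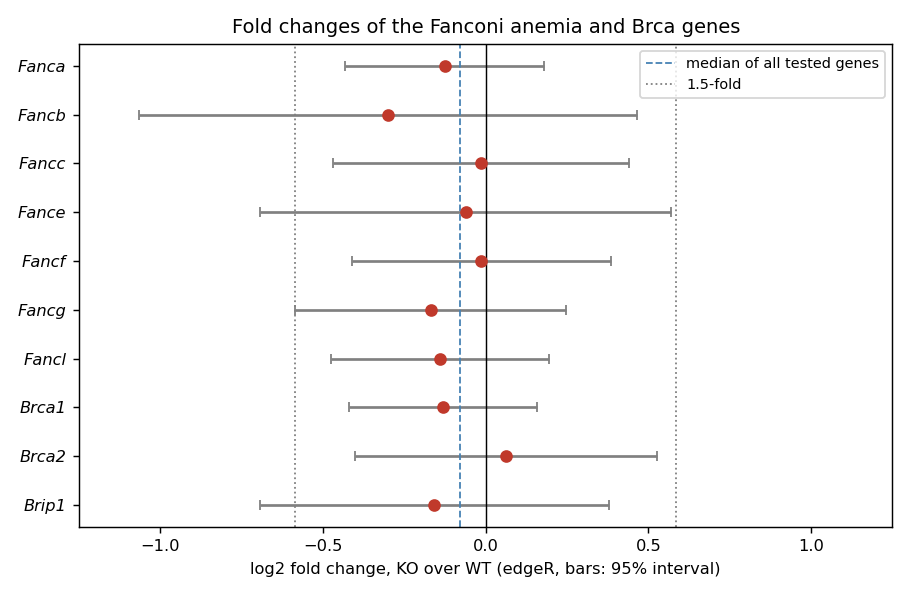
Log2 fold change of KO over WT (horizontal axis) of each of the 10 genes (points) with its 95% interval from edgeR (bars), the median of all 446 tested genes (dashed, -0.08) and a 1.5-fold difference in either direction (dotted). Each interval crosses 0, and 6 of 10 lie between the dotted lines.

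The intervals, like the p-values, measure only the spread between these samples, and they take the housekeeping scaling as given. For Fanca, Fancc, Fancf, Fancl, Brca1 and Brca2, 6 of the 10 genes, the 95% interval lay within 1.5-fold in either direction, as it did for 54.0% of all tested genes. For Fancb, Fance, Fancg and Brip1 the interval reached past a 1.5-fold decrease, and for 0 of the 10 it reached a 1.5-fold increase. The interval of Brca1 ran from 0.748 to 1.11 times its WT level. That of Fancb, the probe with the fewest counts of the 10, ran from 0.478 to 1.38 times. Counting error alone gives a relative SD of 5.51% for Brca1 and 13.9% for Fancb, beside spreads over the 4 samples of 6.88% and 20.02%. Fancc and Fanca varied about as much as counting error gives, with chi-square statistics per degree of freedom of 0.959 and 1.09. The other 8 genes ran from 1.53 for Brca1 to 3.56 for Brip1. The median over all tested genes was 3.57, at a higher median count (352, against 182 for the 10 genes).

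Most of the 10 genes, like most of the panel, had a lower mean in KO samples under housekeeping scaling. Of the 10, 9 had a log2 fold change below 0, against 66.8% of all tested genes. With total count scaling 9 did too, against 6 with TMM or DESeq2 size factor scaling and 4 with positive control scaling. The median of the 10 was -0.13, against -0.08 over all tested genes. The medians were -0.048 and 0.0011 with TMM scaling, and 0.0036 and 0.052 with positive control scaling, a shift of 0.13 in both medians. With total count scaling they were -0.14 and -0.093. Both KO samples lay below both WT samples for 3 of the 10 genes (Fanca, Fancb and Brca1), against 31.4% of all tested genes. For Fancb this was nearly a tie, with KO 1 and WT 1 both at 56.7 scaled counts. Both lay above for 0 of the 10, against 11.2%. With TMM scaling, a count added after the data were seen, both lay below for 0 of the 10 genes and 17.9% of all tested genes. With total count scaling, also added then, both lay below for 3 of the 10 and 35.9%. Without KO 2, 5 of the 10 genes were above 0, with a median of 0.015 against -0.063 over all tested genes. The 19 leukocyte markers, 15 of them below background in every sample, summed to 297 and 282 scaled counts in the KO pair. In the WT pair they summed to 329 and 367, and their part in the levels of the 10 genes was not tested.

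**Figure D3:**
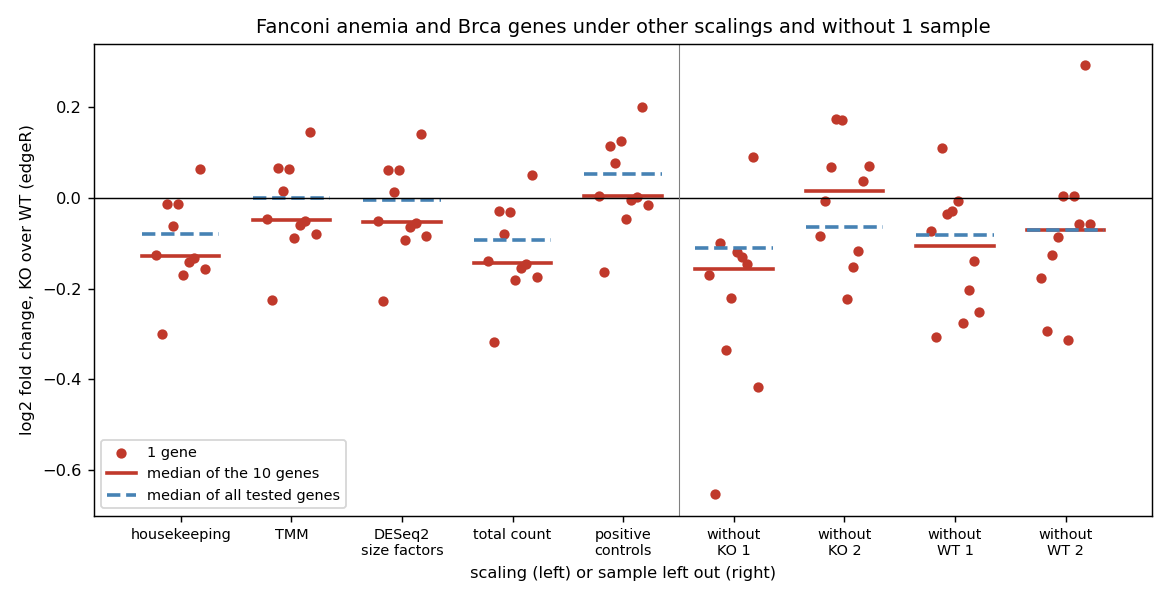
Log2 fold change of KO over WT (vertical axis) of the 10 genes (points) under 5 scalings (left) and with each sample left out (right), with the median of the 10 genes (solid) and of all tested genes (dashed). The median of the 10 genes is -0.13 with housekeeping scaling, 0.0036 with positive controls and 0.015 without KO 2.

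The KO samples differed from each other in part of the set. The log2 ratio of KO 2 over KO 1 was -0.63 for Fancb, -0.51 for Fance, -0.48 for Brip1 and -0.39 for Fancf, and lay between -0.17 and 0.10 for the other 6 genes. The ratio of WT 2 over WT 1 was largest for Brca2, at 0.43, and lay between -0.30 and 0.28 for the rest. Thus these 4 genes varied within the KO group, and Brca2, Fancg and Fancl within the WT group. KO 2 was the lowest of the 4 samples for 6 of the 10 genes and for 43.5% of all tested genes, and the highest for 0 of the 10 and 21.5% of all tested genes. Under the other 4 scalings, added after the data were seen, KO 2 was lowest for 4 or 5 of the 10 genes and for 33.2% to 38.8% of all tested genes. The summed fibroblast and pericyte markers were also lowest in KO 2, summing to 291 in KO 1 and 154 in KO 2, and to 267 and 484 in the WT pair. Of the 7 measured, 5 were tested and 1, Pdgfra, lay below background in every sample. KO 2 was lowest for 4 of the 5 tested genes. Col5a1 was lowest in WT 1, at 23.6 scaled counts against 25.7 in KO 2. Pdgfrb had 65.2 and 60.0 scaled counts in the KO pair, against 82.2 and 73.9 in the WT pair. The collagen gene Col1a1 had 57.7 and 12.4 scaled counts in KO 1 and KO 2, and 28.3 and 112 in the WT pair. Col3a1, another collagen gene, had 88.7 and 16.2 in KO 1 and KO 2, and 68.0 and 162 in the WT pair. In KO 2 both Col1a1 and Col3a1 lay below background. The part of these cells in the levels of the 10 genes was not tested.

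**Figure D4:**
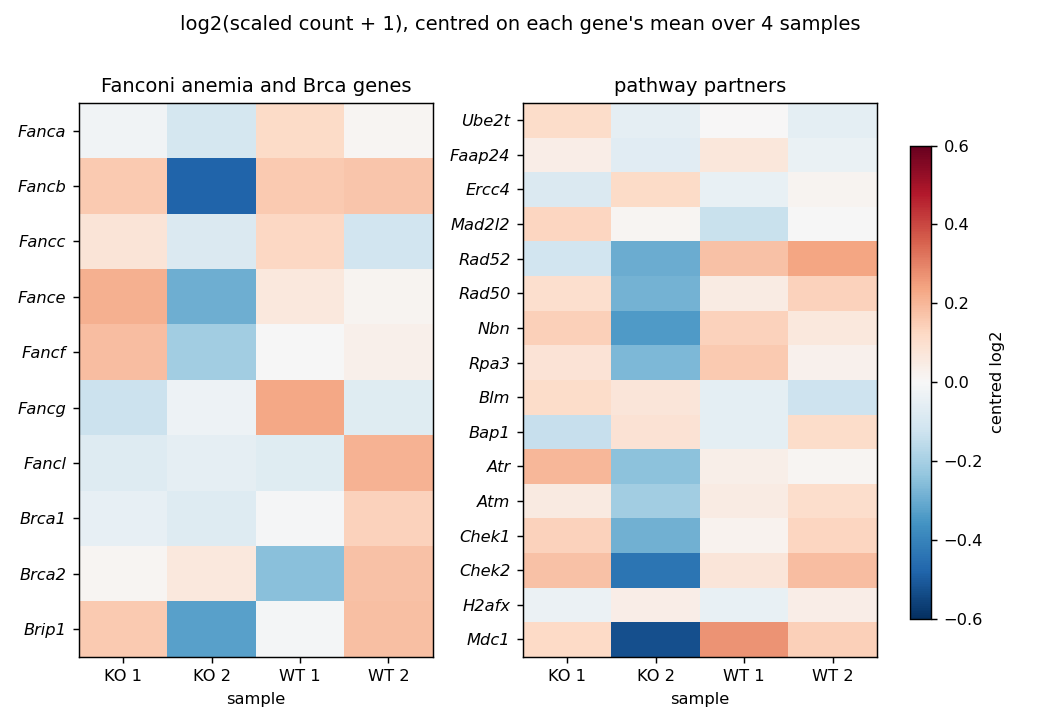
Log2(scaled count + 1) of the 10 genes (left) and of 16 pathway partners (right) in each sample, centred on the mean of each gene over the 4 samples (colour scale, log2 units). KO 2 is lowest for Fancb at -0.48, while Fanca, Fancl and Brca1 stay within 0.21 of their means in all samples.

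Pathway partners on the panel numbered 18, all of them tested, and 0 passed the adjusted threshold or an unadjusted p under 0.05 in edgeR. Their median log2 fold change was -0.14, with 13 below 0 and 5 above under housekeeping scaling. With total count scaling 4 lay above, and with positive control scaling 9. Closest to the core complex, Ube2t, the enzyme that passes ubiquitin to FANCD2 with FANCL, had 371 and 331 scaled counts in the KO pair, against 344 and 330 in the WT pair. Faap24, which helps to anchor the complex on DNA, had 124 and 115 scaled counts in the KO pair, against 127 and 118 in the WT pair. The groups overlapped for both genes. Ercc4, a nuclease gene that acts once FANCD2 is marked, had 222 and 256 scaled counts in the KO pair, against 230 and 239 in the WT pair. These 3 genes were chosen after their values were seen.

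Among recombination genes, Rad52, which anneals single strands, had 90.9 and 79.9 scaled counts in the KO pair, against 111 and 117 in the WT pair, with the lowest p of the partners (log2 fold change -0.42, edgeR unadjusted p = 0.104, adjusted p = 0.582). Both KO samples of Rad52 lay below both WT samples, as for 4 of the 18 partners and 31.4% of all tested genes. The helicase gene Blm, chosen after its values were seen, had both KO samples above, at 136 and 132 scaled counts against 121 and 115 in the WT pair. Both KO samples lay above for 2 of the 18 partners and 11.2% of all tested genes.

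Among damage signaling genes, Mdc1, an adaptor at double-strand breaks, had 309 and 197 scaled counts in KO 1 and KO 2, and 344 and 314 in the WT pair. Its log2 fold change was -0.38 (edgeR adjusted p = 0.646), or -0.091 without KO 2. Chek2, a checkpoint kinase gene, had 159 and 104 scaled counts in KO 1 and KO 2, and 148 and 160 in the WT pair. Chek1, the kinase downstream of ATR, had 545 and 406 scaled counts in KO 1 and KO 2, and 503 and 542 in the WT pair. For Chek1 and Chek2, both chosen after their values were seen, KO 1 lay within or near the WT range and KO 2 below it. H2afx, the histone gene of the break signal, also chosen after its values were seen, did not have KO 2 below the WT pair, at 1226 and 1294 scaled counts in the KO pair and 1218 and 1293 in the WT pair. KO 2 was lowest for 12 of the 18 partners, against 43.5% of all tested genes. Under the other scalings it was lowest for 10 or 11, against 33.2% to 38.8%.

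Replication genes are given because crosslink repair works at the replication fork. Of 18 replication and S phase genes, 0 passed either threshold. Under housekeeping scaling, 13 had a log2 fold change below 0 and 5 above. With total count scaling 5 lay above too, and with TMM scaling 11. The median of these genes was -0.024 under housekeeping scaling, where KO 2 was lowest for 15 of them, against 43.5% of all tested genes. Under the other scalings KO 2 was lowest for 10 to 14, against 33.2% to 38.8%. Cdk2, a kinase of S phase entry, had 3090 and 2936 scaled counts in the KO pair, against 3490 and 3580 in the WT pair (log2 fold change -0.23, edgeR adjusted p = 0.569). Rfc4, a subunit of the clamp loader, had 482 and 411 scaled counts in the KO pair, against 397 and 375 in the WT pair (log2 fold change 0.21, edgeR adjusted p = 0.649). Under housekeeping scaling, the groups did not overlap for Cdk2, lower in KO samples, or for Rfc4, higher in KO samples. Both KO samples lay below both WT samples for 5 of the 18 genes, against 31.4% of all tested genes. They lay above for 1 of the 18, against 11.2%. Counts with other scalings were added after the data were seen. With total count scaling, they lay below for 5 of the 18 and above for 1, against 35.9% and 9.42% of all tested genes. With positive control scaling, they lay below for 0 of the 18 and above for 2, against 7.62% and 23.3% of all tested genes. There the log2 fold change of Cdk2 was -0.097. Cdc7, a kinase gene needed to fire origins, had 86.6 and 59.0 scaled counts in KO 1 and KO 2, and 93.5 and 104 in the WT pair. Pole2, a polymerase subunit gene, had 451 and 326 scaled counts in KO 1 and KO 2, and 470 and 454 in the WT pair. Both were lowest in KO 2.

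Of 5 tested G2/M and mitosis genes, 4 had a log2 fold change above 0 and 1 below under housekeeping scaling, 5 lay above with TMM scaling, and 0 passed the adjusted threshold. Wee1, a kinase gene that delays mitosis, had 198 and 264 scaled counts in the KO pair, against 152 and 153 in the WT pair. It alone of the 5 had an unadjusted p under 0.05 (log2 fold change 0.60, edgeR unadjusted p = 0.0176, adjusted p = 0.538), and its log2 fold change was 0.38 without KO 2. KO 2 was the highest sample for 2 of the 5 genes, Wee1 and Cdc25c, against 21.5% of all tested genes. Cdc25c, a phosphatase gene that promotes mitosis, had 294 and 306 scaled counts in the KO pair, against 280 and 254 in the WT pair. Its relative Cdc25b had 413 and 391 scaled counts in the KO pair, against 429 and 355 in the WT pair. The cyclin gene Ccnb1 lay near background, at 28.9 and 23.8 scaled counts in the KO pair, against 16.1 and 28.1 in the WT pair.

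**Figure D5:**
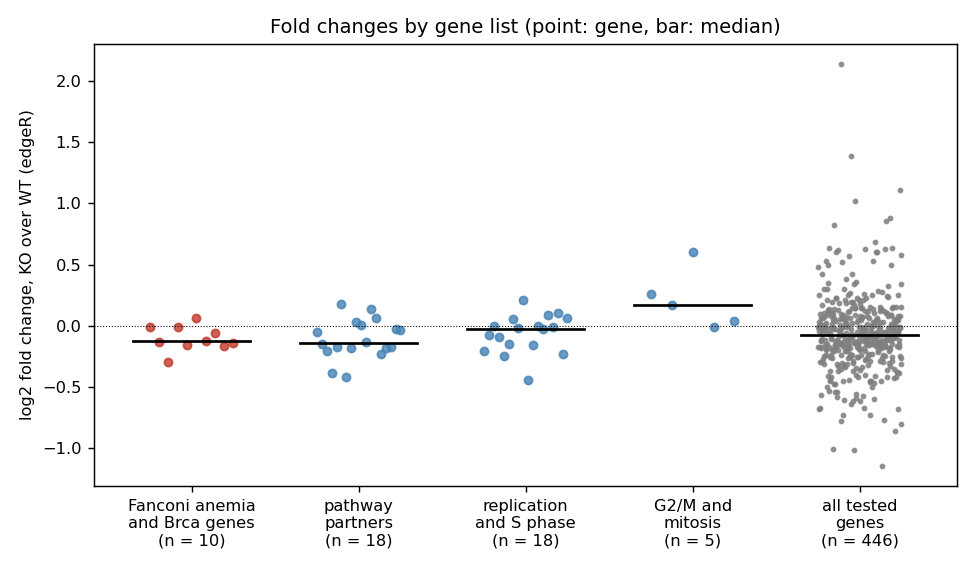
Log2 fold change of KO over WT (vertical axis) of each tested gene (points) in the Fanconi anemia and Brca set, its pathway partners, 2 cell cycle lists and all 446 tested genes, with a bar at each median. The 10 genes run from -0.30 to 0.063, inside the range of all tested genes, with medians of -0.13 and -0.08.

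The genes nearest in pattern to Brca1 and Brca2 were found by the Euclidean distance between centred log2 profiles over the 4 samples. Nearest to Brca1 were Sin3a (distance 0.023), Smarcb1 (0.033) and Tsc2 (0.052), against a median of 0.307 to the other tested genes. Like Brca1, these 3 genes were highest in WT 2. Nearest to Brca2 were Kitl (0.059), Stat3 (0.089) and Tgfbr2 (0.106), against a median of 0.449, and like Brca2 all were lowest in WT 1 and highest in WT 2. For the 4 genes low in KO 2, the 3 nearest were looked up after their values were seen. They were Hells (0.067), Chek2 (0.095) and Ltbp1 (0.101) for Fancb, and Atr (0.059), Dnmt1 (0.075) and Top2a (0.080) for Fance. For Fancf they were Top2a (0.040), Arid1a (0.042) and Cdc6 (0.056), and for Brip1 Mcm2 (0.070), Mtor (0.070) and Chek1 (0.078). All profiles share the same 4 samples and scaling factors, so closeness is a description only.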

How the data were processed

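For each of the 4 samples, the authors applied 100 ng of RNA to an nCounter Mouse PanCancer Pathways panel and deposited raw counts per probe. The deposited scaled signal is each count times a sample factor (0.877 to 0.986), with a floor of 17. Its 1780 values over the floor fitted this to within 0.5 counts plus 0.2%. No source used here says how the factors were chosen.

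Samples were grouped by title. Housekeeping factors were geometric means of the 20 housekeeping probes, all with a mean of at least 100 counts. Of 750 endogenous probes 304 failed the background filter. The remaining 446 were fitted to genotype in edgeR 4.0.16 (glmQLFit and glmQLFTest; residual degrees of freedom, 2), with Benjamini-Hochberg adjustment over all 446 at 0.05, in R 4.3.3. The fit was checked on simulated counts. Profiles used log2 with a pseudocount of 1. Promoters of all 10 genes were matched by symbol in RefSeq.

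The genes, lists and tests were chosen with earlier results of these data known. Named genes were the 10 genes, up to 4 of lowest p from the partner, S phase and G2/M lists, the 3 nearest in pattern to Brca1 and Brca2, and markers. The results of some genes that this rule names are not reported here. Others are said to be chosen after their values were seen. Alternatives were TMM, DESeq2 size factor, total count and positive control scaling, DESeq2 1.42.0, limma-voom (limma 3.58.1), the deposited signal in limma, 3 other filters, background subtraction, a replicate block and leaving out each sample.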

Additional observations from a re-analysis of the deposited data

How the results depend on the processing

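The count of Fanconi anemia and Brca genes past the adjusted threshold was 0 under all 16 alternatives. Over all tested genes it was 2 with DESeq2, 1 with the replicate block, 0 to 20 without 1 sample (20 without KO 1, where KO 2 stands alone and is assumed to vary like WT) and 0 otherwise. The labels link same-numbered samples by number alone. Their deviations correlated at 0.040, which with 2 samples per group cannot show whether they shared a preparation. The block gave 48 genes at an unadjusted p under 0.05, against 33 without it, and 0 of the 10 genes. That count was 52 with no filter and 12 to 105 without 1 sample. The median of the 10 genes was -0.048 with TMM scaling, -0.052 with DESeq2 size factors, -0.052 in DESeq2, 0.0036 with positive controls and -0.16 to 0.015 without 1 sample. Log2 fold changes turned sign for Fancc, Fance and Fancf at 0.065, 0.016 and 0.065 with TMM, 0.061, 0.013 and 0.061 when scaled by DESeq2 size factors, and 0.062, 0.013 and 0.062 in DESeq2. With positive controls they did for Fanca (0.0042), Fancc (0.11), Fance (0.076), Fancf (0.13), Brca1 (0.0030), Sin3a (0.018) and Tsc2 (0.029), and with total count scaling for Tgfbr2 (-0.010). Without 1 sample the ranges that crossed 0 were -0.13 to 0.11 for Fancc, -0.33 to 0.18 for Fance, -0.22 to 0.17 for Fancf, -0.27 to 0.0042 for Fancl, -0.14 to 0.29 for Brca2 and -0.42 to 0.070 for Brip1. Others were -0.096 to 0.71 for Ccnb1, -0.094 to 0.18 for Cdc25b, -0.15 to 0.35 for Kitl, -0.17 to 0.37 for Stat3 and -0.15 to 0.17 for Tgfbr2. The cause was not tested. Low counts limit Fancb most, with a counting error of 13.9%.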
